A study of Caenorhabditis elegans with 2 samples.

Results

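The acetyltransferase genes cbp-1, mys-1, mys-2 and pcaf-1 of Caenorhabditis elegans, and the partner genes epc-1 and trr-1, are described by where the tagged protein Y67H2A.10 was found around their 5′ ends. They are 6 of 19973 protein-coding genes on the nuclear chromosomes. They were chosen by their function and by peaks seen in these same lists, so every value below is a description and no test was run on it. A gene counted as carrying a region when a peak summit lay from 1000 bp upstream to 100 bp downstream of the 5′ end of any of its transcripts. Of the 6 genes, 2 carried regions of the conservative list, cbp-1 with 1 region and epc-1 with 2. These are 3 of the 666 regions in that list, which are called kept. Ranked lists hold every candidate peak, called a record, whether or not it passed the threshold. By the same rule 601 protein-coding genes carried a kept region, or 3.01% (95% Wilson interval 2.78 to 3.26). Some of these genes had the same region, as 435 regions lay in their windows. The interval treats genes as independent and does not cover the spread between replicates. The choice of the 6 genes used these peaks, so the 2 of 6 cannot be read against the 3.01%.

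The peaks come from chromatin immunoprecipitation with sequencing (ChIP-seq), which enriches the DNA that a chosen protein sits on or near. The animals were whole young adults of strain RW12295 at 63 hours, grown from starved L1 larvae. In this strain the sequence TY1::EGFP::3xFLAG was inserted at the Y67H2A.10 gene on chromosome IV by CRISPR, giving the allele st12295[Y67H2A.10::TY1::EGFP::3xFLAG], and an antibody to GFP was used for the precipitation. RefSeq names the gene's product a C2H2-type domain-containing protein, a zinc finger class that includes many DNA-binding factors. The 2 biological replicates form 1 group with no second condition. Libraries from animals without the tag were not analysed here. Chromatin came from whole animals, so the cell types in which the protein sat at a gene are not given by the peaks. The files hold no read counts, and the depth of each replicate is unknown.

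Histone acetyltransferases transfer acetyl groups to lysines of histone tails, a change that goes with open chromatin and active promoters and enhancers. The gene cbp-1 encodes the worm member of the CBP/p300 family, a transcriptional coactivator needed for differentiation in the embryo. MYS-1 is the worm counterpart of TIP60, the catalytic subunit of the NuA4-type complex, EPC-1 is the counterpart of its Enhancer of Polycomb subunit, and TRR-1 is the counterpart of TRRAP, the large scaffold protein of such complexes. The genes mys-1, epc-1 and trr-1 belong to the class C synthetic multivulva genes, known from worm vulval development. MYS-2 is another enzyme of the MYST family to which TIP60 belongs, and PCAF-1 is the worm counterpart of the GCN5/PCAF enzymes of SAGA-type complexes. The proteins EPC-1 and TRR-1 have no acetyltransferase activity of their own as far as is known, so the group holds 4 enzymes and 2 partners.

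The sequences under the highest peaks at epc-1 and cbp-1 are printed whole because these regions carry the main result, each read 5′ to 3′ on the strand of its gene from the ce11 build (WBcel235). The epc-1 region is chrIII:12608651-12608937 on the minus strand, and the cbp-1 region is chrIII:9765518-9765743 on the plus strand. Capitals mark GTCTC or its reverse complement GAGAC, and CGCG, which is its own reverse complement.
epc-1 region: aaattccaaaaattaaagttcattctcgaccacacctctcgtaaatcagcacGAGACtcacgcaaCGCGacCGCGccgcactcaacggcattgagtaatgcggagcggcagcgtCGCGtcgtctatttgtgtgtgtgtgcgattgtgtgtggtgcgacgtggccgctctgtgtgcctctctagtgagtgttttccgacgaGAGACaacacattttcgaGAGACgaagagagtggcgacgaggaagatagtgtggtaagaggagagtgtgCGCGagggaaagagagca
cbp-1 region: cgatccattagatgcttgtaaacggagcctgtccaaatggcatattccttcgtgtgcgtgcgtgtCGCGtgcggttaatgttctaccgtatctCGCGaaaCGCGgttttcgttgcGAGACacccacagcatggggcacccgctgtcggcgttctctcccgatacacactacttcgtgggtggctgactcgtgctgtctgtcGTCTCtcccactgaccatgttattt
For comparison, 101 bp centred on the summit are printed at genes where the signal was lower. The first 2 are records of mys-1 (chrV:7084897-7084997, minus strand) and trr-1 (chrII:11676079-11676179, minus strand, seen in replicate 2), neither of which passed the threshold. The last 2 are kept regions at further genes of histone acetylation, hat-1 (chrIII:10407431-10407531, minus strand) and htz-1 (chrIV:4445877-4445977, plus strand).
mys-1 record: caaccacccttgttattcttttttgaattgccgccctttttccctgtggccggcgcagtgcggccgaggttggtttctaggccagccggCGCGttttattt
trr-1 record: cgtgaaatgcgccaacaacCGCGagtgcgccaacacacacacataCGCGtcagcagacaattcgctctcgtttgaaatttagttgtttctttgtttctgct
hat-1 region: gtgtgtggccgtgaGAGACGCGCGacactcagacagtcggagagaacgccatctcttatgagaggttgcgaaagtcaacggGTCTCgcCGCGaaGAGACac
htz-1 region: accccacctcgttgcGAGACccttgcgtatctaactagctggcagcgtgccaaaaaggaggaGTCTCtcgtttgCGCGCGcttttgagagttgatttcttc

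The regions at epc-1 were among the highest of the list. Peak signal is the value that the authors' peak caller assigned to a peak, on a scale that was not given in the sources used here. It is compared only within a list or between the replicates' lists, and a higher region is one with more signal. The gene epc-1 (WBGene00007030) lies at chrIII:12599630-12608586 on the minus strand and has 2 annotated 5′ ends. At the first region, whose sequence is printed above, the signal was 268 in replicate 1 and 260 in replicate 2. On the pooled reads it was 504, rank 4 of the 666 regions. Its summit at position 12608826 lay between genes, 240 bp upstream of the 5′ end. The replicates placed the summit 234 and 240 bp upstream.

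The second epc-1 region, chrIII:12608287-12608533, lay on the other side of the most upstream 5′ end. Its signal was 157 in replicate 1 and 181 in replicate 2, and 304 on pooled reads, rank 27 of 666. Its summit at position 12608399 lay 68 bp downstream of the nearer 5′ end, in the 5′ UTR of epc-1. In both replicates the first region was higher than the second. Of the 601 genes with a kept region, 26 had 2 or more. A further kept region, chrIII:12598476-12598771, lay 1006 bp past the 3′ end of epc-1, with a signal of 52.8 in replicate 1 and 57.0 in replicate 2. Its pooled signal was 112, rank 284, and its summit was in the 5′ UTR of the next gene, gldi-8, 39 bp from a 5′ end of that gene.

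At cbp-1 (WBGene00000366, chrIII:9766509-9774825, plus strand, 4 transcripts) the region was as high as the first one at epc-1 but farther from the gene. The signal was 261 in replicate 1 and 234 in replicate 2. On pooled reads it was 501, rank 6 of 666, and the regions ranked 4 to 6 lay between 501 and 504. The summit at position 9765633 lay between genes, 876 bp upstream of the most upstream 5′ end, and the replicates placed it 875 and 876 bp upstream. Close to the 5′ end itself the ranked list of all candidate peaks held only records of much lower signal. A record 28 bp downstream had a signal of 42.6, and one 207 bp upstream had 24.4. Replicate 1 had a record of 37.2 at 26 bp downstream, and replicate 2 listed none there.

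The threshold was set on the irreproducible discovery rate, or IDR. It estimates, among peaks ranked at least as high, the part that would not come up again in the list compared. All 3 regions at cbp-1 and epc-1 had the lowest IDR that the files give, 1e-05, as did 103 of the 709 kept records (14.5%). They were also in the thresholded list of each replicate alone. In these lists 1.61% (replicate 1) and 1.93% (replicate 2) of protein-coding genes carried a region, and of the 6 genes again cbp-1 and epc-1 did. The kept record closest to the threshold of 0.01 had an IDR of 0.00995. In the ranked list that compares the replicates 743 records had an IDR of 0.01 or lower, more than the 709 kept. Meeting the IDR threshold was thus not enough to be kept, and why the rest were left out was not tested.

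**Figure D1:**
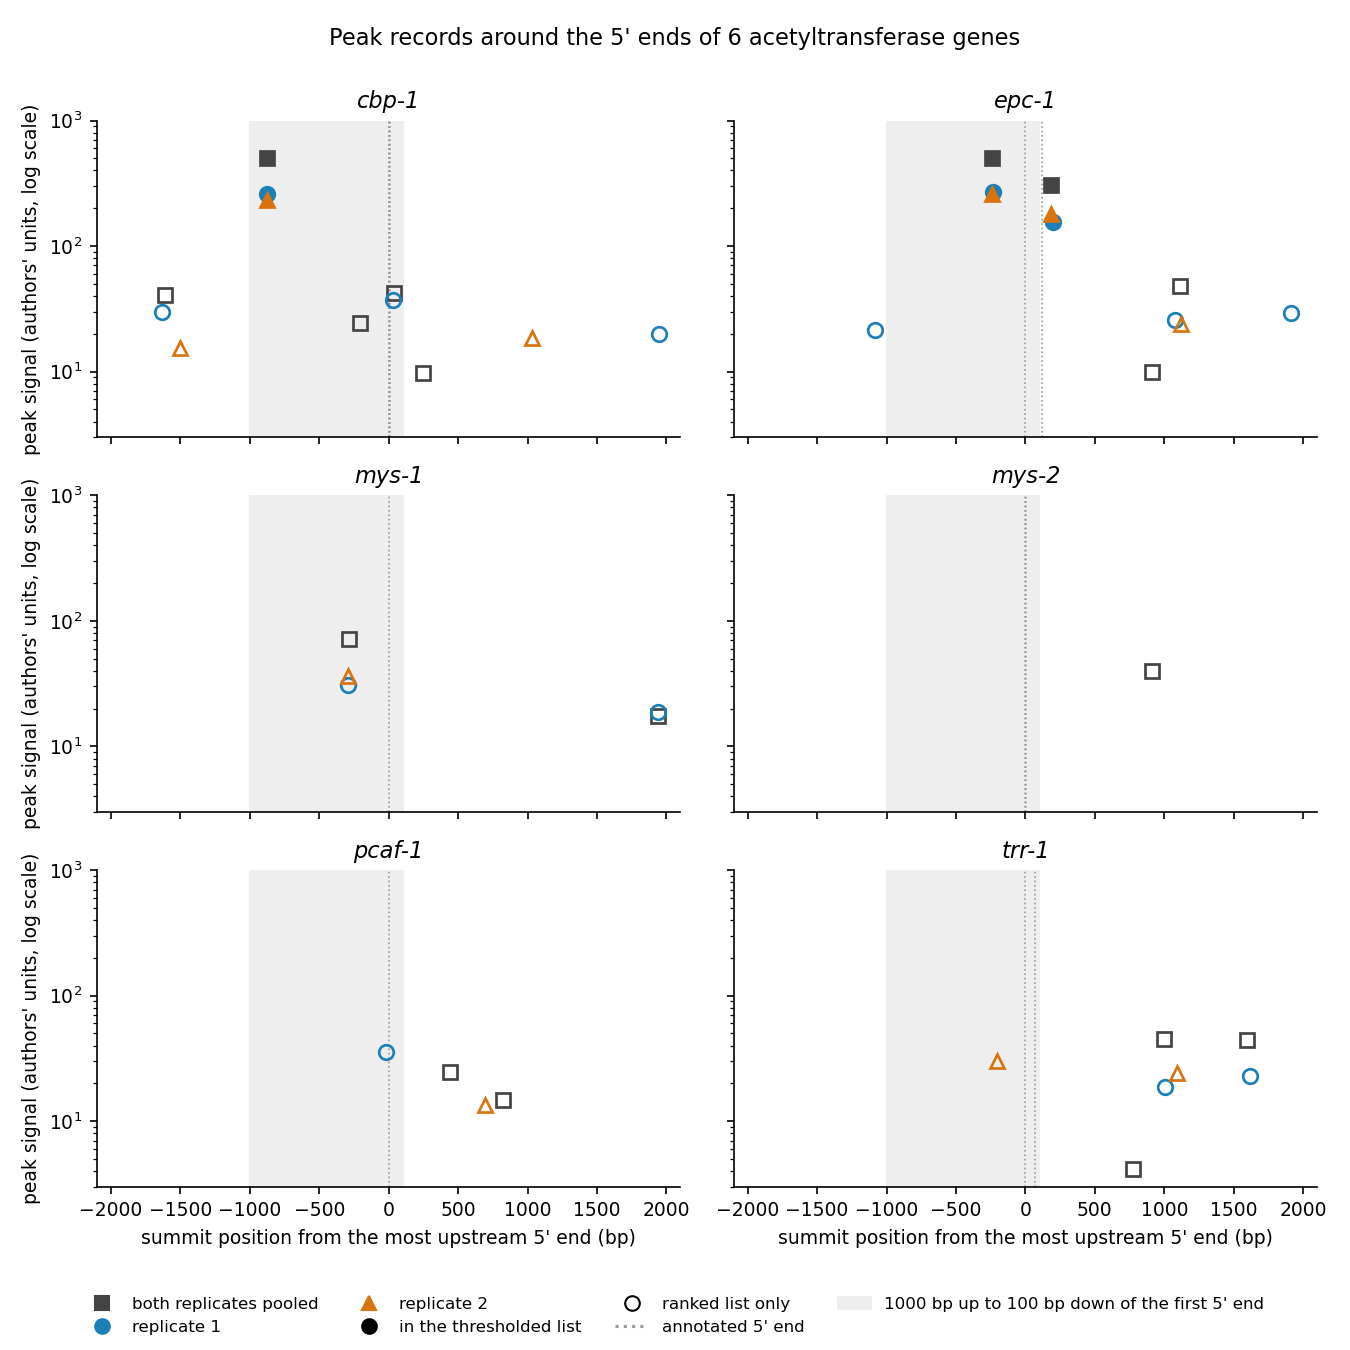
Summit position in bp from the most upstream annotated 5′ end (x axis, negative upstream) against peak signal on a log scale (y axis) at the 6 genes. Records within 2000 bp of that end are drawn from the ranked list that compares the replicates and from each replicate's own. Records found only in the list that compares the pooled reads with themselves are not drawn. Squares are pooled reads, circles replicate 1 and triangles replicate 2, and filled symbols are in the thresholded list. Filled symbols stand at cbp-1 and epc-1 alone, between 157 and 504, while the open symbols at the other 4 genes reach 71.5.

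Among the other 4, in the list that compares the replicates, the gene mys-1 came closest to the threshold. It lies at chrV:7081545-7084662 on the minus strand (WBGene00007029), and a ranked record at chrV:7084799-7085094 had its summit 285 bp upstream of the only 5′ end. The signal was 30.9 in replicate 1 and 36.4 in replicate 2, each below both replicates' values at the 3 kept regions of cbp-1 and epc-1. On pooled reads it was 71.5, at or above 95.5% of the 22544 ranked records. Its IDR between the replicates was 0.0561, outside the threshold. Few kept regions were as low, and 14 of the 666 (2.1%) had a lower signal. Over all 1013 ranked records from that signal up to the highest, 684 (67.5%) had an IDR of 0.01 or lower. Within each replicate alone the record ranked less reproducibly, with an IDR of 0.915 in replicate 1 and 0.633 in replicate 2. In the list that compares the pooled reads with themselves its IDR was 0.761. In replicate 1 alone a record of pcaf-1 had a lower IDR than mys-1, 0.399. The nearest kept region was 24111 bp away.

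At the other 3 genes no window held a record in both replicates' own lists. At trr-1 (WBGene00007028, chrII:11661569-11675927, minus strand) replicate 2 had a record 202 bp upstream with a signal of 30.4 and an IDR of 0.756. That signal was at or above 91.1% of the ranked records of replicate 2. Replicate 1 had no record in the window, and its nearest was 931 bp downstream with a signal of 18.9. At pcaf-1 (WBGene00021636, chrI:3516450-3523418, plus strand) replicate 1 had a record 18 bp upstream with a signal of 35.3 and an IDR of 0.399. That signal was at or above 93.0% of the ranked records of replicate 1, where the mys-1 record was at 87.1%. Replicate 2 had its nearest 692 bp downstream, in an intron, with a signal of 13.5. The ranked list that compares the pooled reads with themselves had a record at the same summit as replicate 1, with a signal of 46.1 and an IDR of 0.767, and the list that compares the replicates had none in the window. Of the 2 replicates' own lists, each of these promoters thus had a record in only 1. At mys-2 (WBGene00010537, chrI:14118751-14127202, plus strand) no list had a record in the window. The nearest ranked record lay 910 bp downstream, in an intron, with a signal of 39.6. The nearest kept region was 39891 bp from trr-1, 249648 bp from pcaf-1 and 5257 bp from mys-2.

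Records below the threshold were common over the whole genome. A ranked record of any reproducibility lay in the window of 28.0% of protein-coding genes in the list of both replicates, 33.6% in that of replicate 1 and 40.0% in that of replicate 2. Of the 6 genes the first list held cbp-1, epc-1 and mys-1. The list of replicate 1 added pcaf-1, and that of replicate 2 held trr-1 in place of pcaf-1. The absence of a kept region at mys-1, mys-2, pcaf-1 and trr-1 says that none passed the threshold in these lists.

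The replicates gave the member regions almost equal signal. The ratio of replicate 1 to replicate 2 was 1.03 at the first epc-1 region, 1.11 at cbp-1 and 0.863 at the second epc-1 region. On the log2 scale these are 0.04, 0.16 and -0.21. Over the 657 kept regions with a record in both replicates, the median log2 ratio was 0.02, with quartiles of -0.26 and 0.29, so all 3 lay between these quartiles. The order of the 3 was the same in each replicate, with the first epc-1 region above cbp-1 and cbp-1 above the second epc-1 region. Within replicate 1 the first epc-1 region had 268 and cbp-1 261, and within replicate 2 they had 260 and 234. The ranges of these 2 regions over the replicates overlapped slightly, between 260 and 261, and with 2 replicates of unknown depth their order was not tested. Both values of the second epc-1 region (157 and 181) lay below all 4 of those.

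**Figure D2:**
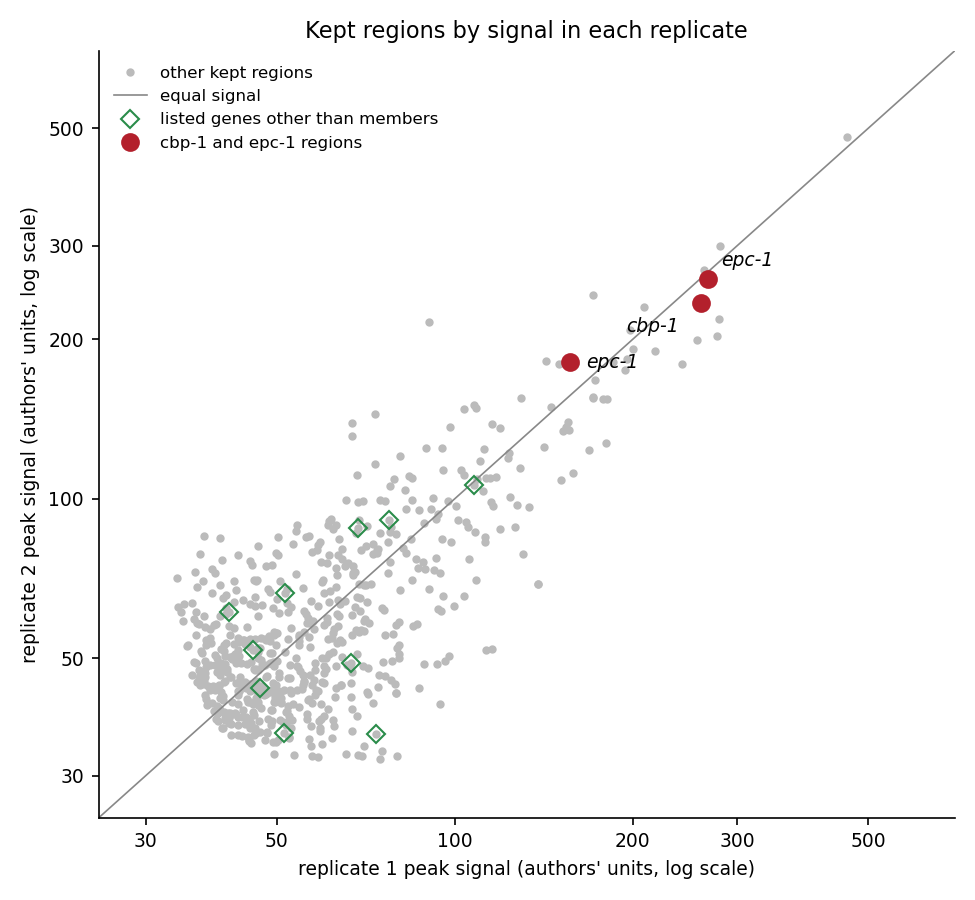
Peak signal in replicate 1 (x axis) against replicate 2 (y axis), both on log scales, for the 657 kept regions with a record in both replicates. Red points are the regions at cbp-1 and epc-1, green diamonds are kept regions at other listed genes of histone modification, and the line marks equal signal. The red points sit near the line at the upper right, while the diamonds lie at or below 108 in replicate 1.

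The other kept regions most like each of these in both replicates were found by the Euclidean distance between log2 signals. The search ran over the 2 replicates and among regions in protein-coding promoter windows. The 3 member regions were left out of it, so cbp-1 and epc-1 could not come up for each other, though their highest regions had similar signals. For the first epc-1 region they were at rpl-3, which encodes a ribosomal protein (distance 0.06), F44E5.4, an Hsp70 family gene (0.26), and mog-4, an RNA helicase gene (0.37). For cbp-1 the same 3 genes came first, with F44E5.4 at 0.15, rpl-3 at 0.21 and mog-4 at 0.23. For the second epc-1 region they were hsr-9 (0.03), K10D2.5 (0.06) and cox-5B (0.13), the last of which encodes a cytochrome c oxidase subunit. With 2 samples behind it, this likeness says only that the signals were similar.

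The distance to the gene set cbp-1 apart from epc-1. Of the 666 kept regions, 435 (65.3%) had a summit in a protein-coding window, at a median distance of 213 bp from the 5′ end (quartiles 96 and 385.5). The epc-1 summits lay at 240 and 68 bp. At 876 bp the cbp-1 summit was farther out than 97.5% of these regions, and 11 of them, itself included, were as far or farther. RefSeq gives a 5′ end of cbp-1 that puts the summit at 877 bp. For epc-1 it gives a shorter transcript, which puts the first summit at 359 bp.

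**Figure D3:**
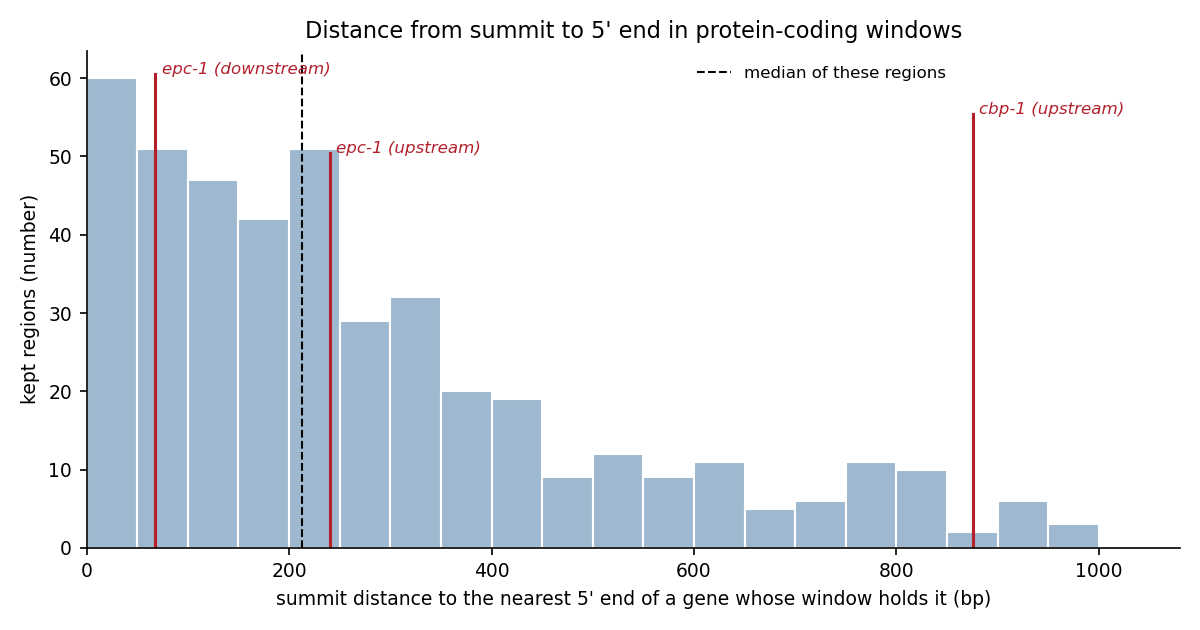
Number of kept regions (y axis) by distance in bp from summit to the nearest 5′ end of a gene whose window holds it (x axis), for the 435 regions in protein-coding windows. Red lines mark the epc-1 regions at 68 and 240 bp and the cbp-1 region at 876 bp, and the dashed line is the median of 213 bp. The cbp-1 line stands in the sparse far tail.

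Other genes lie beside these summits, and the peaks alone do not say which gene a summit belongs to. The cbp-1 summit was closer to the 5′ end of the non-coding RNA gene R10E11.10, on the minus strand, at 524 bp upstream of it, and 628 bp downstream of the 5′ end of another non-coding RNA gene, R10E11.12. The next protein-coding gene on that side, gcc-2, had its 5′ end 3490 bp away. The first epc-1 summit lay 230 bp upstream of the non-coding RNA gene Y111B2A.34, which overlaps the start of epc-1 on the same strand. It also lay 463 bp upstream of Y111B2A.12, a protein-coding gene that runs the other way, so it stood between divergent promoters. The second epc-1 summit lay in the window of Y111B2A.12 too, 890 bp upstream of it, and 197 bp downstream of the 5′ end of Y111B2A.34. When each summit was given only to the nearest 5′ end of any kind of gene, cbp-1 lost its region to R10E11.10 and epc-1 lost its first and higher region to Y111B2A.34, which is 230 bp from that summit against 240 bp for epc-1. The second epc-1 region stayed with epc-1.

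The DNA under the highest member summits was GC-rich. Counted over the 101 bp centred on the summit, the GC content was 61.4% at the first epc-1 region, 59.4% at cbp-1 and 51.5% at the second epc-1 region. Over all kept regions the median was 49.5%, with quartiles of 44.6 and 54.5, and over the 17824 ranked regions below the threshold it was 39.6%. The first epc-1 region and cbp-1 thus lay above the upper quartile, and the second epc-1 region near the middle. Repeat masking covered 15.0% of the first epc-1 region, 10.9% of the second and 0% of the cbp-1 region.

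Short words common under these peaks were looked for on both strands. ACGCGC with GCGCGC, and GTCTCGCA, were taken from earlier results of these data, and GTCTC and CGCG, which overlap them, were chosen after these sequences had been seen. GTCTCGCA occurred within 50 bp of the summit in 26 of the 666 kept regions (3.90%), in 0.421% of ranked regions below the threshold, and in 0.205% of the 101-bp stretches just upstream of the 19973 protein-coding genes. The cbp-1 region was among the 26. The word is on the minus strand there, its centre 0.5 bp from the summit, and it can be read in the printed sequence as the reverse complement with GAGAC in capitals. Neither epc-1 region holds it.

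CGCG occurred within 50 bp of 53.5% of kept summits, 15.5% of those below the threshold and 9.80% of the stretches upstream of genes. Over its whole length the first epc-1 region holds 4 copies, the nearest centred 4.5 bp from the summit. The whole cbp-1 region holds 3, the nearest 13.5 bp away. Counted over whole regions, CGCG occurred in 70.6% of kept regions and 36.2% of those below the threshold. GTCTC occurred within 50 bp at 32.1%, 15.0% and 12.7% in the same order. Over whole regions it was in 55.0% of kept regions and 38.2% of those below the threshold. It occurs 3 times in the whole first epc-1 region, each over 50 bp from the summit, and 2 times in the whole cbp-1 region. The second epc-1 region holds none of the 5 words. ACGCGC (within 50 bp at 17.3% of kept regions, 2.99% below the threshold, 1.79% upstream of genes) and GCGCGC (13.5%, 1.80% and 1.12%) were in none of the 3 member regions. A match says only that these letters are present.

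The wider machinery of histone modification was described with 7 lists of genes. They held 75 genes found in the annotation, of which 12 (16.0%) carried a kept region. Without the 6 members it was 10 of 69 (14.5%), beside the 3.01% of all protein-coding genes, and 44 of the 69 (63.8%) had a ranked record of any kind, beside 28.0%. The lists were drawn up with earlier results of these data known, so these counts are no independent evidence. Signals at the 10 were all below those at cbp-1 and epc-1.

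Among 12 acetyltransferase enzymes, hat-1 was called beside cbp-1. HAT-1 acetylates newly made histones, and its region had a signal of 66.7 in replicate 1 and 49.0 in replicate 2, rank 307. Its summit also lay in the window of M03C11.3. Among 12 genes of TIP60/NuA4 and SRCAP-type complexes, 4 were called, epc-1, ekl-4, htz-1 and ruvb-1. The gene ekl-4, the DMAP1 counterpart, had signals of 77.4 and 91.1 in replicates 1 and 2. The gene htz-1, which encodes the histone variant H2A.Z, had 51.6 and 66.4, and ruvb-1, a RuvB-like ATPase gene, had 46.9 and 43.9. Each of these 3 regions lay in the window of another protein-coding gene too, rps-20 for ekl-4, wapl-1 for htz-1 and tofu-1 for ruvb-1. Neither mys-1 nor trr-1, the partners of epc-1, was called.

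Of 10 genes for partners in SAGA-type and BRPF-type complexes 1 was called, taf-12, with signals of 73.7 and 36.0. The replicates differed more there than at cbp-1 or epc-1. None of 12 deacetylase and sirtuin genes was called, and 6 of the 12 had a ranked record of any kind. Over all protein-coding genes, 3.01% carried a kept region and 28.0% had a ranked record. With a called share that low, none in a list of 12 does not set these genes apart from all protein-coding genes. A difference from the other lists was not tested. Of 12 genes for deacetylase partners 1 was called, the histone chaperone gene lin-53, with signals of 68.7 and 88.1 in a window shared with nra-2. Of 10 bromodomain and reader genes 2 were called, the BET family gene bet-2 (41.5 and 61.2) and the polybromo gene pbrm-1 (51.5 and 36.2).

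Among 12 histone methyltransferase genes set-16 and set-2 were called, the worm counterparts of MLL-type and SET1-type enzymes. The gene set-16 had the highest signal of the 10 genes, 108 in replicate 1 and 106 in replicate 2, and shared its window with drr-2. At set-2 the signals were 45.5 and 51.8. Of the 10 genes, ekl-4, lin-53 and set-16 were also in the thresholded list of each replicate alone, as cbp-1 and epc-1 were. The genes taf-12 and set-2 were in that of replicate 1, bet-2 was in that of replicate 2, and hat-1, htz-1, ruvb-1 and pbrm-1 were in neither.

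**Figure D4:**
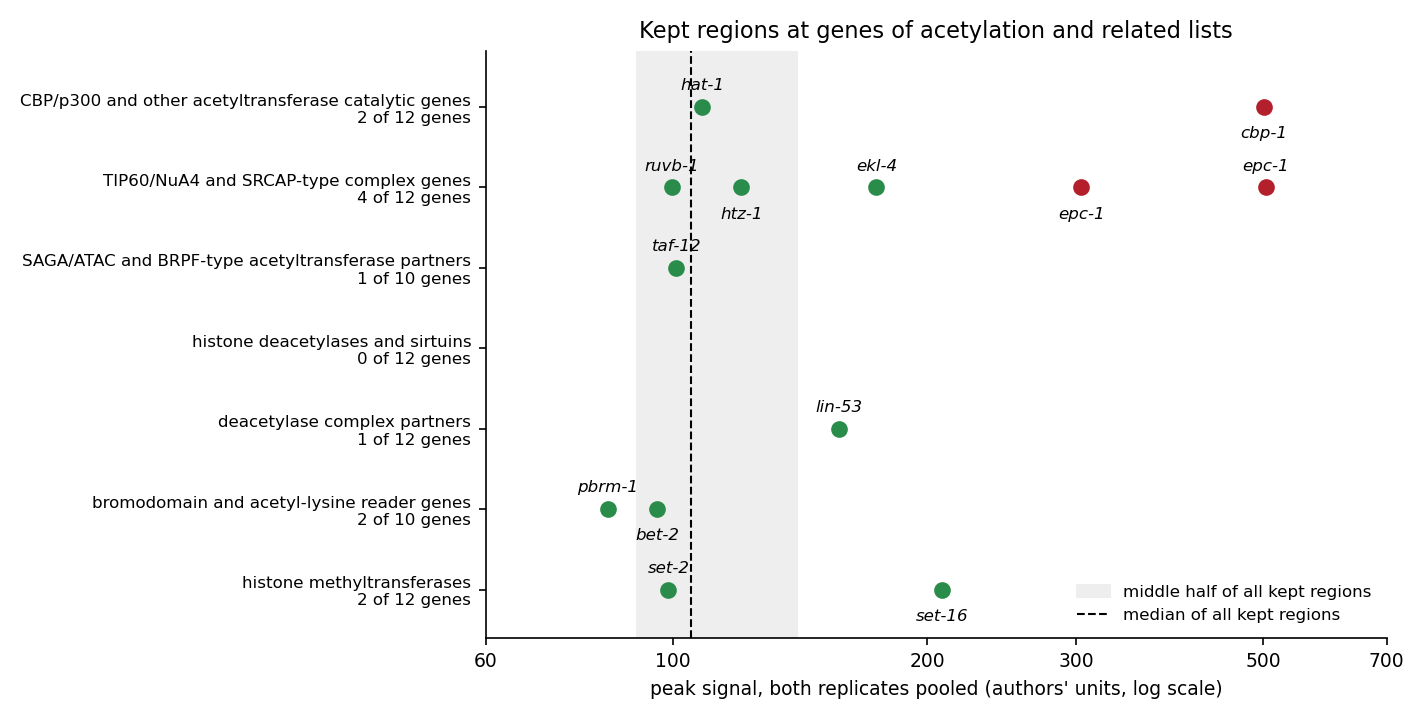
Peak signal on pooled reads (x axis, log scale) of every kept region at a gene of the 7 lists (y axis, with the number called of those found). Red points are cbp-1 and epc-1, green points are other genes, the band spans the quartiles of all 666 kept regions (90.5 and 140) and the dashed line is their median of 105. The red points lie between 304 and 504, and the highest green point, set-16, is at 208.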

How the data were processed

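Chromatin from 2 biological replicates of tagged young adults was analysed from 8 peak lists on the ce11 build, which is the assembly WBcel235. The authors called peaks on each replicate and on pooled reads, per the deposited derivation records. In those records a further file enters the 4 thresholded lists and not the 4 ranked ones. The conservative list compares the replicates. Which aligner and caller were run was not given in the sources used here. As deposited, signal is a value given to each peak, score is the authors' rescaled IDR (at most 1000), and ranked lists carry the authors' −log10 IDR. Values were used only to rank and describe. Depth is unknown, and the Wilson intervals cover the number of genes only. From the whole-series ranked lists, 16 columns about the compared pair were left out.

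Overlapping records were merged to 1 region with the summit and signal of its highest record. Regions of the merged conservative list are called kept. Genes came from Ensembl release 115, names of products and alternative 5′ ends from RefSeq on the same assembly. Scripts ran in Python 3.11.15 with numpy 2.4.6, pandas 2.3.3 and matplotlib 3.10.9, and were tested on simulated data. There was no second group, so no test between conditions was made. The members and gene lists were chosen with earlier results of these data known. Named genes are the 6 members, genes with a 5′ end within 1000 bp of a member summit and listed genes with a kept region. Also named are the 3 regions outside the members most alike in signal to each member region. The neighbours gcc-2 and gldi-8 were added to these once their positions were known. Of the listed symbols, 6 were not found in the annotation. Alternatives were other lists, thresholds, windows, 5′ ends and word distances, and each replicate alone.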

Additional observations from a re-analysis of the deposited data

How the results depend on the processing

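Of 50 alternative values for 9 results, 26 stayed within their limits and 24 moved. The limit was a fixed ratio for counts, and the standard deviation of the 2 replicates' values for percentiles and distances. For percentiles those 2 values came from the replicates' ranked lists and lay so close together that every alternative moved. For distances a value of 877 or 875 bp at cbp-1 counted as moved from 876 bp. Such moves reflect narrow limits. None of these results has a direction that could reverse. The call of 2 members fell to 1, epc-1, with a window of 500 bp upstream and when each summit went only to its nearest gene start, coding or not (where its second region alone stayed), and it was 2 under all the other settings tried. Genes called, 601 in all, came to 351 at IDR 0.001 and 332 with nearest starts of all biotypes, and ranged from 322 to 385 without either replicate. They rose to 804 at IDR 0.05 and to 794 with a window of 2000 bp upstream to 500 bp downstream. Listed genes called, 12 in all, came to 7 at IDR 0.001 and ranged from 7 to 8 without either replicate. They rose to 14 in the pooled list, at IDR 0.05 and with the longer window. Both met-1 and nurf-1 came in when only replicate 2 was used and also in the pooled list. The causes were not tested. The signal percentile of cbp-1 was 99.25 in the main setting, 99.29 with records not merged, 99.97 among all ranked records, 99.22 in the pooled list, and 99.967 to 99.978 without either replicate, where all ranked records of the remaining replicate were used. That of the first epc-1 region was 99.55, 99.58, 99.98, 99.53, and 99.976 to 99.984 in the same order. The larger lists set these percentiles. With RefSeq 5′ ends the distance was 877 bp for cbp-1 and 359 bp for epc-1, and without either replicate 875 to 876 and 234 to 240 bp. The first epc-1 region held 1 of the 5 words within 50 bp of the summit, 2 within 100 bp and 2 in the whole region. With no read counts, the depth limits of the lists could not be given. No paired analysis was possible because there was 1 group and no test.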
